A study of Drosophila melanogaster with 6 samples.

Results

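Pig1, ng1, ng2 and ng3 are neighbouring genes on the X chromosome of Drosophila melanogaster. They were taken by RefSeq gene name from 34115 RefSeq transcripts listed in the deposited tables. Each gene has 1 transcript there, so the cluster comes to 4 transcripts, and all 4 were among the 15342 with a base mean above 0. The genes were proposed with the fold changes of this comparison in view, and in that sense were selected on those values, so their changes and calls are given as a description and support nothing.

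The study measured RNA in larval central nervous systems. There were 3 dSET2 knockdown samples, of genotype dSET2 RNAi/+; elavC155GAL4, and 3 control samples, of genotype dSET2 RNAi/+; Canton S. Both groups carry the RNAi transgene against dSET2 (Set2, a methyltransferase gene acting on lysine 36 of histone H3), and the control lacks the GAL4 driver. The elavC155GAL4 driver is a widely used line for expression in the nervous system, and in which cells it acted here was not measured. Each sample pooled 15 nervous systems of last-instar larvae at 84 h after egg laying, reared at 25 °C.

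The ng genes (new glue) and Pig1 (pre-intermoult gene 1) are known from the larval salivary gland. That gland first makes the products of the pre-intermoult genes and later, under the steroid hormone ecdysone, the Sgs glue proteins that fix the pupal case to its support. The locus is the 3C intermoult puff of the polytene X chromosome, where the glue gene Sgs4 lies beside Pig1 and both sit within the large gene dnc, which encodes a cAMP phosphodiesterase.

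In the BDGP6.54 annotation, each of the 4 genes is a single exon inside the span of dnc and overlaps none of the dnc exons. Pig1, ng2 and ng3 lie on the strand opposite to dnc, and ng1 lies on the same strand as dnc. The transcripts are short, with 690 bases for Pig1, 523 for ng1, 546 for ng2 and 594 for ng3. Their coding sequences have 172, 107, 112 and 146 codons in the same order. ng1 and ng2 are close paralogs, and how the authors' counting treated reads shared between the ng genes is not stated, so the split of reads among them is uncertain. No gene sequence was used here.

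The deposited tables give no values per sample, but they hold enough digits to work out the whole reads behind them. The base mean, a mean of normalized counts over libraries, moves in 4 steps, each of which is what 1 read adds in 1 library. The libraries behind these steps are called A, C, D and B, and the labels describe 2 samples more than that. A transcript with its only read in A, C or D has a positive fold change and one with its only read in B a negative one, without exception in 499, 427, 194 and 489 transcripts of libraries A, C, D and B. A negative fold change is thus a lower level in A, C and D than in B. Which side is the knockdown is not stated, so levels are given by library, and B has no replicate. The effective library sizes were 14197624 reads for A, 8405437 for C, 6974243 for D and 10613374 for B.

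All 4 genes were far lower in libraries A, C and D than in library B. Together they held 155 reads in A, 57 in C and 165 in D, against 178818 reads in B. Scaled to the effective library size as CPM, the unit of the deposited abundance column, that is 10.9 CPM in A (95% Poisson interval 9.27 to 12.8), 6.78 in C (5.14 to 8.79) and 23.7 in D (20.2 to 27.6), against 16848 CPM in B (16770 to 16927). The 4 genes therefore made up 1.68% of the effective size of library B. Intervals cover counting error only.

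ng3 was the most abundant of the 4 in every library. It had 112 reads in A, 49 in C and 138 in D, against 143035 reads in B. Its level was 7.89 CPM in A, 5.83 in C and 19.8 in D, against 13477 CPM in B. By base mean, 32295, ng3 ranked 22 among the 15342 transcripts of the authors' deposited table.

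Pig1 had 27 reads in A, 4 in C and 8 in D, against 19922 reads in B. Its level was 1.90 CPM in A, 0.476 in C and 1.15 in D, against 1877 CPM in B. Library A was thus the highest of the 3 low libraries for Pig1, whereas D was the highest for each of the ng genes.

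ng1 had 6 reads in A, 3 in C and 9 in D, against 7770 reads in B, or 0.423, 0.357 and 1.29 CPM against 732 CPM. ng2 had 10 reads in A, 1 in C and 10 in D, against 8091 reads in B, or 0.704, 0.119 and 1.43 CPM against 762 CPM. The paralogs were thus nearly equal in B, where ng1 took 49.0% of their joint reads (exact 95% interval 48.2% to 49.8%). For each of the 4 genes, library B lay above A, C and D. B was also above A, C and D for the nearby genes Fcp3C and Myc, which were not called. A lack of overlap with a single library therefore does not set the cluster apart, and its share over all transcripts was not computed.

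**Figure D1:**
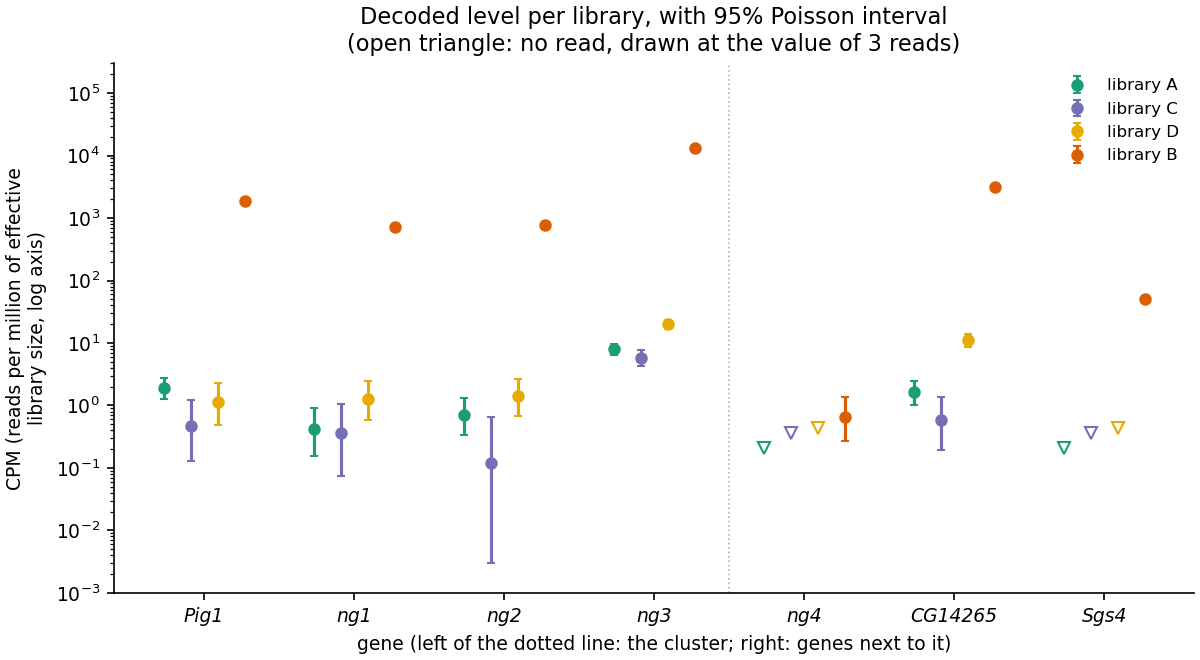
Level of each cluster gene and of 3 genes next to it in libraries A, C, D and B, in CPM on a log axis, with exact 95% Poisson intervals. Pig1, ng1, ng2 and ng3 sit between 0.119 and 19.8 CPM in A, C and D and between 732 and 13477 CPM in B; an open triangle marks a library with no read, at the value of 3 reads.

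Per kilobase of transcript, the order in library B was ng3 with 22688 CPM per kb, then Pig1 with 2720, and ng1 and ng2 with 1400 and 1396. In A the order was ng3 (13.3 CPM per kb), Pig1 (2.76), ng2 (1.29) and ng1 (0.808). In C and D the values below ng3 lay within each other's counting error. ng3 led all the others by a wide margin in each library, and ng1 and ng2 did not differ in A, C or D beyond counting error.

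The make-up of the cluster's reads was compared between A, C and D and library B. ng3 took 72.3% of the reads of the 4 genes in A (exact 95% interval 64.5% to 79.1%), 86.0% in C (74.2% to 93.7%) and 83.6% in D (77.1% to 88.9%), against 80.0% in B. Pig1 took 17.4% in A (11.8% to 24.3%), 7.02% in C (1.95% to 17.0%) and 4.85% in D (2.12% to 9.33%), against 11.1% in B. The Pig1 share was thus above that of B in A and below it in D, and the ng3 share was below that of B in A, each beyond counting error. The intervals of ng3 in C and D and of Pig1 in C contained the share in B. The intervals of ng1 and ng2 in A, C and D all contained their shares in B, which were 4.35% and 4.52%.

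**Figure D2:**
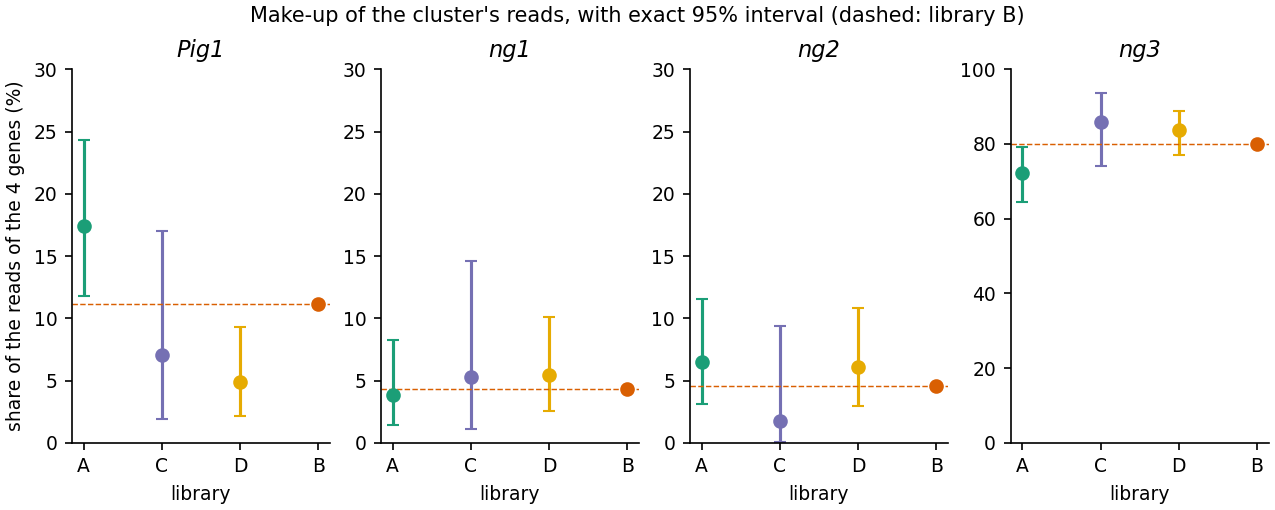
Share of each gene in the reads of the 4 genes, in percent, by library, with exact 95% binomial intervals; the dashed line is the share in B. ng3 runs from 72.3% to 86.0% in A, C and D and is at 80.0% in B, with its interval in A wholly below the line, and Pig1 lies above the line in A and below it in D.

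The libraries of the low side differed among themselves. The highest of A, C and D was 4.0 times the lowest for Pig1, 3.62 times for ng1, 3.39 times for ng3 and 12.1 times for ng2. The large ratio of ng2 rests on its single read in C, whose interval runs from 0.00301 to 0.663 CPM, against 0.688 to 2.64 CPM in D. Taking the 4 genes together, the level in B was 1543 times that of A, 2485 times that of C and 712 times that of D. The differences among A, C and D are therefore small beside the distance of each of them from B.

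The deposited fold changes were alike for the 4 genes in one table and not in the other. The authors' deposited table from edgeR gave a log2 fold change of -10.55 for Pig1, -10.14 for ng1, -10.02 for ng2 and -10.25 for ng3. The median over 7180 transcripts at a base mean of 10 or more was 0.01. Only 18 of the 15342 transcripts in the authors' deposited table from edgeR lay under -10, all 4 cluster genes among them, at ranks 9 (Pig1), 12 (ng3), 16 (ng1) and 18 (ng2) from the lowest. From the decoded reads, the log2 ratio of mean CPM, A, C and D over B, was -10.64 for Pig1, -10.05 for ng1, -9.98 for ng2 and -10.24 for ng3. The decoding searched only around the edgeR fold change, so these ratios are no separate check on it.

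The authors' deposited table from DESeq2 gave a log2 fold change of -9.00 ± 0.484 (standard error) for Pig1, -8.47 ± 0.491 for ng1 and -8.58 ± 0.513 for ng3. ng2 stood apart in the authors' deposited table from DESeq2, at -4.15 ± 0.653. Its decoded reads gave it nearly the same ratio as ng1. Those reads were sought only within a range set from the edgeR fold change. A ratio near -4.15 could not have been returned, so the decoded reads do not decide between the 2 tables. Of the 18 transcripts under -10 in the authors' deposited table from edgeR, 6 lay above -5 in the DESeq2 table, ng2 among them. The others were CG13947, CG12310, CG13461, Jig and CG8087, named after their values were seen. What sets these transcripts apart was not tested.

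All 4 genes were past an adjusted p-value of 0.05 in both deposited tables, in the direction of a lower level in A, C and D. Over all transcripts with a base mean above 0, 1.75% were called in that direction in the authors' deposited table from edgeR and 1.93% in either. Among the 9221 transcripts with an adjusted p-value in the authors' deposited table from DESeq2, 2.02% were called in that direction and 2.26% in either. Nothing is read from these counts, since the genes were chosen with them known. The smallest and largest false discovery rates of the 4 genes in the authors' deposited table from edgeR were 4.660e-133 for Pig1 and 7.930e-94 for ng3. B has no replicate, so those p-values hold no measure of the spread on its side. How much spread they take from other transcripts is not stated.

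**Figure D3:**
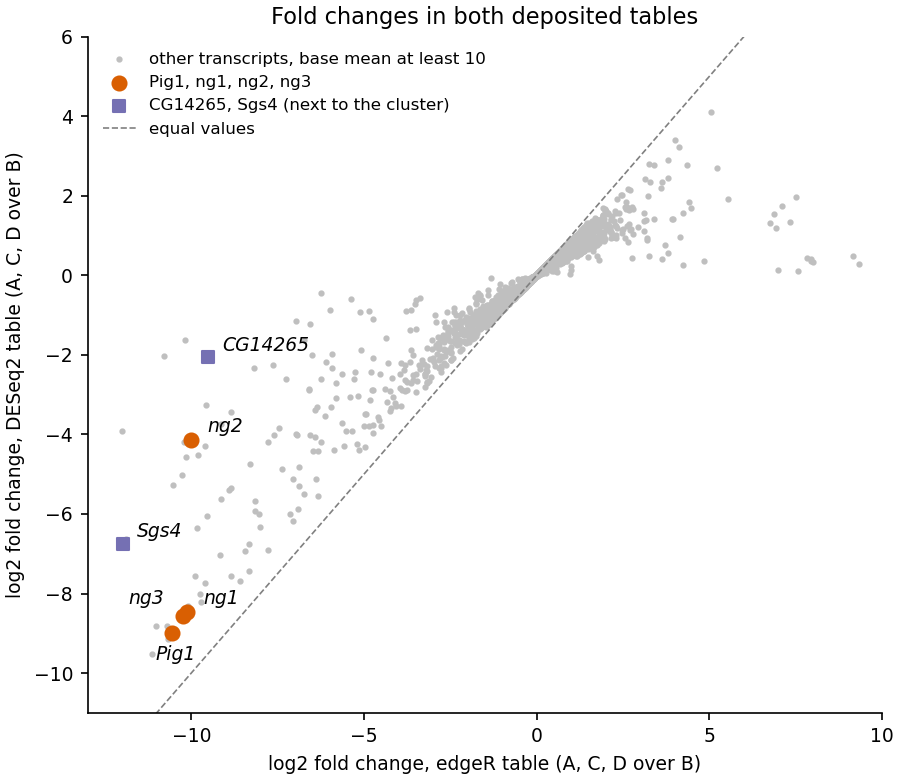
Log2 fold change, A, C and D over B, of transcripts at a base mean of 10 or more, in the edgeR table (horizontal) against the DESeq2 table (vertical); the dashed line marks equal values. Pig1, ng1 and ng3 lie near -10 and -9, and ng2 lies at -10.02 in one table and -4.15 in the other.

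The genes next to the cluster were examined in RefSeq gene order. That rule was set with earlier results of these data known, so their values are a description too. ng4, the gene between ng1 and Pig1, was nearly silent. It had 0 reads in A, C and D, against 7 reads in B, or 0.660 CPM, and was not called in the authors' deposited table from edgeR (log2 fold change -5.76, false discovery rate 0.193). With the 0 of A, C and D counted as 3 reads, or 0.101 CPM, the level in B was 6.50-fold higher. That leaves out the counting error of B (0.265 to 1.36 CPM). In B, the level of ng4 per kilobase was 2.47 CPM per kb, against 1396 CPM per kb for ng2, the lowest of the 4 cluster genes there.

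The next gene beyond ng2 is CG14265, which also lies inside dnc. It had 23 reads in A, 5 in C and 77 in D, against 32789 reads in B, or 1.62, 0.595 and 11.04 CPM against 3089 CPM. Its pattern over the libraries was thus that of the ng genes, with D the highest of the low side and C the lowest. Per the authors' deposited table from edgeR, the log2 fold change was -9.52, yet its false discovery rate was 1 and its unadjusted p-value 0.0475. The authors' deposited table from DESeq2 gave -2.06 ± 0.583 with an adjusted p-value of 0.0203.

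Sgs4, the glue gene beyond Pig1, had 0 reads in A, C and D, against 537 reads in B, or 50.6 CPM. The level in B was 499-fold higher, counting the 0 of A, C and D as 3 reads over the 3 libraries and leaving out the counting error of B (46.4 to 55.1 CPM). Sgs4 was called in the authors' deposited table from edgeR, at -11.99 and a false discovery rate of 1.170e-30. Within B, the level of Sgs4 per kilobase, 53.1 CPM per kb, was below that of Pig1, ng1, ng2 and ng3.

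Genes beyond this stretch, and dnc around it, were not called, though several had few reads. dnc itself has 17 transcripts in the tables, of which 6 held reads and none was called in the authors' deposited table from edgeR. The log2 fold changes of those 6 in the authors' deposited table from edgeR ran from -1.89 to 2.50. The most abundant dnc transcript had 1.97 CPM in A, 4.64 in C and 1.86 in D, against 2.83 CPM in B, and B lay within the range of the others. CG3939, Fcp3C and CG18508 on one side and lncRNA:CR44886, CG10793 and Myc on the other were not called in the authors' deposited table from edgeR, with log2 fold changes from -0.78 for Fcp3C to 0.51 for CG18508. Fcp3C had 90 reads in A, 43 in C and 30 in D, against 96 reads in B, and Myc had 270, 212 and 162 reads, against 289. The others had from 1 to 7 reads in a library, too few to show a difference of modest size, and lncRNA:CR46243 had no reads. Of the 11 flanking or intervening genes, Sgs4 was the only one called in the authors' deposited table from edgeR. Among X-linked genes at a base mean of 10 or more the share called there was 2.92%. Several of the 11 lay under that base mean, so that share is not over like genes.

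**Figure D4:**
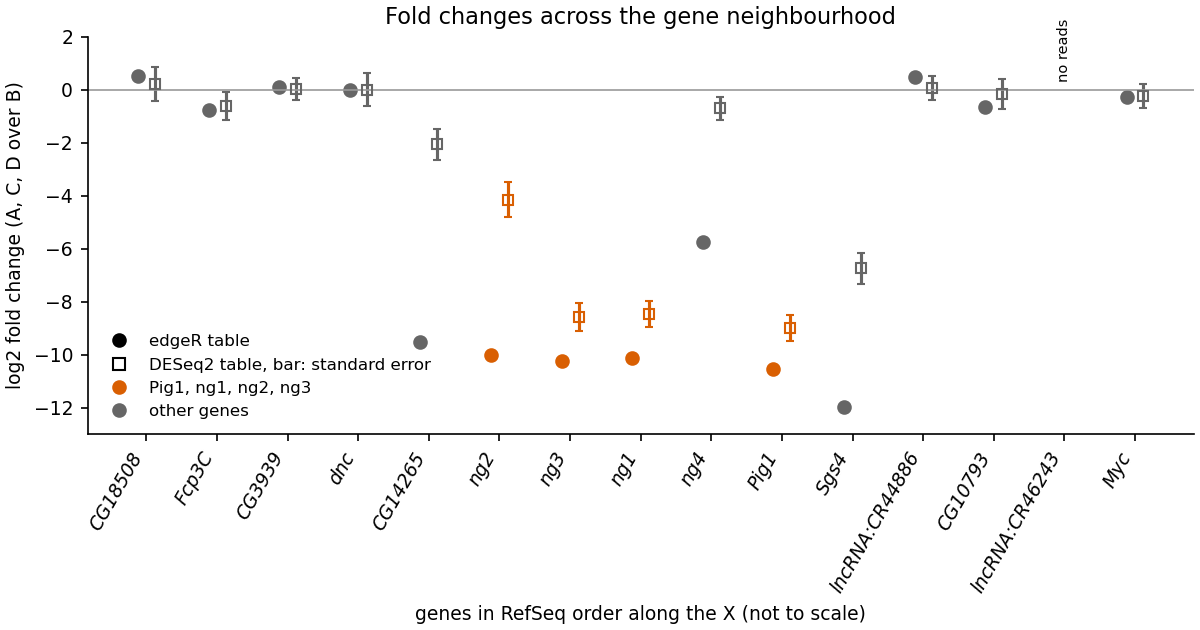
Log2 fold change, A, C and D over B, of genes in RefSeq order along the X, from the edgeR table (filled) and the DESeq2 table (open, with standard error). Each gene is shown by its most abundant transcript. The genes from CG14265 to Sgs4 lie between -5.76 and -11.99 in the edgeR table, and those on either side between -0.78 and 0.51.

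Other secretion genes of the salivary gland were set beside the cluster, 2 of them, Sgs4 and ng4, from the same stretch of the X. Of 11 listed genes, 10 matched a gene and all 10 held reads. Of these 10, 5 were called in the authors' deposited table from edgeR, all 5 negative, where 2.06% of the 12487 genes with reads were called as negative. In the authors' deposited table from edgeR, their median change was -6.89 on the log2 scale, against 0.05 over those 12487 genes. Computed from the reads, with a total of 0 in A, C and D set to 3 reads, the median log2 ratio of the 10 genes was -4.40. Without Sgs4 and ng4, 4 of 8 genes were called in the authors' deposited table from edgeR and the median from the reads was -4.30. Only 7 of the 10 reached a base mean of 10, some of them through library B alone, so the 5 called and the median of -9.13 among those 7 are no measure of the list; of all 6596 genes at that level, 3.2% were called as negative and 3.59% in either direction in the authors' deposited table from edgeR. The same 5 genes were called in the authors' deposited table from DESeq2, where 2.94% of genes at that level were. They were Sgs4, Sgs5, Sgs7, Sgsf and Eig71Ee, the last a glue-like gene of the 71E puff.

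Sgs7, a small glue protein gene, had 2 reads in A, 1 in C and 2 in D, against 511 reads in B. Eig71Ee had 1 read in A and 0 in C and D, against 270 reads in B, and Sgs5 and Sgsf had no reads in A, C or D, against 74 and 497 reads in B. Not every glue gene followed. Sgs1 had 16 reads in A, 17 in C and 4 in D, against 8 reads in B, and Sgs8 had 22, 19 and 15 reads, against 76. Neither was called in the authors' deposited table from edgeR, at false discovery rates of 1 and 0.572.

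Summed over the 10 matched secretion genes, the level was 3.24 CPM in A, 5.35 in C and 3.30 in D, against 189 CPM in B. The glue genes as a list were thus far less abundant in B than the 4 cluster genes with their 16848 CPM. Of the 10 genes, 4 had no read in A, 5 in C and 5 in D, against 0 in B. Fewer salivary gland cells and less RNA per cell cannot be told apart in such bulk samples, and whether salivary gland tissue was carried into a sample at dissection was not tested.

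Regulators and enzymes of the gland gave a mixed picture. All 9 listed genes held reads, and 4 of the 9 were called in the authors' deposited table from edgeR, all negative, with a median log2 fold change of -1.42 over the 9. The median log2 ratio of the 9 genes from the reads was -1.41. PH4alphaSG1 and PH4alphaSG2, which encode prolyl 4-hydroxylase subunits named for the salivary gland, came closest to the cluster. PH4alphaSG1 had 5 reads in A, 2 in C and 1 in D, against 2273 reads in B, and PH4alphaSG2 had 14, 7 and 3 reads, against 3900.

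The other called genes moved less. sage, a bHLH transcription factor of the gland, had 7.04 CPM in A, 8.09 in C and 7.03 in D, against 69.3 CPM in B, so that A, C and D kept 10.1% to 11.7% of the level of B. sens, a zinc finger transcription factor also used in the peripheral nervous system, had 7.96, 4.64 and 0.574 CPM, against 121 CPM. fkh, CrebA and Scr, which encode further transcription factors of gland development, and hth, a homeobox gene with a broad role in development, were not called in the authors' deposited table from edgeR, with log2 fold changes from -1.42 for fkh to 0.09 for hth. The 9 genes summed to 139 CPM in A, 166 in C and 142 in D, against 911 CPM in B, so that B was 5.49 to 6.56 times the others. Most of the sum in A, C and D was hth, and without it the remaining 8 genes summed to 25.1 CPM in A, 20.8 in C and 15.6 in D, against 790 CPM in B.

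**Figure D5:**
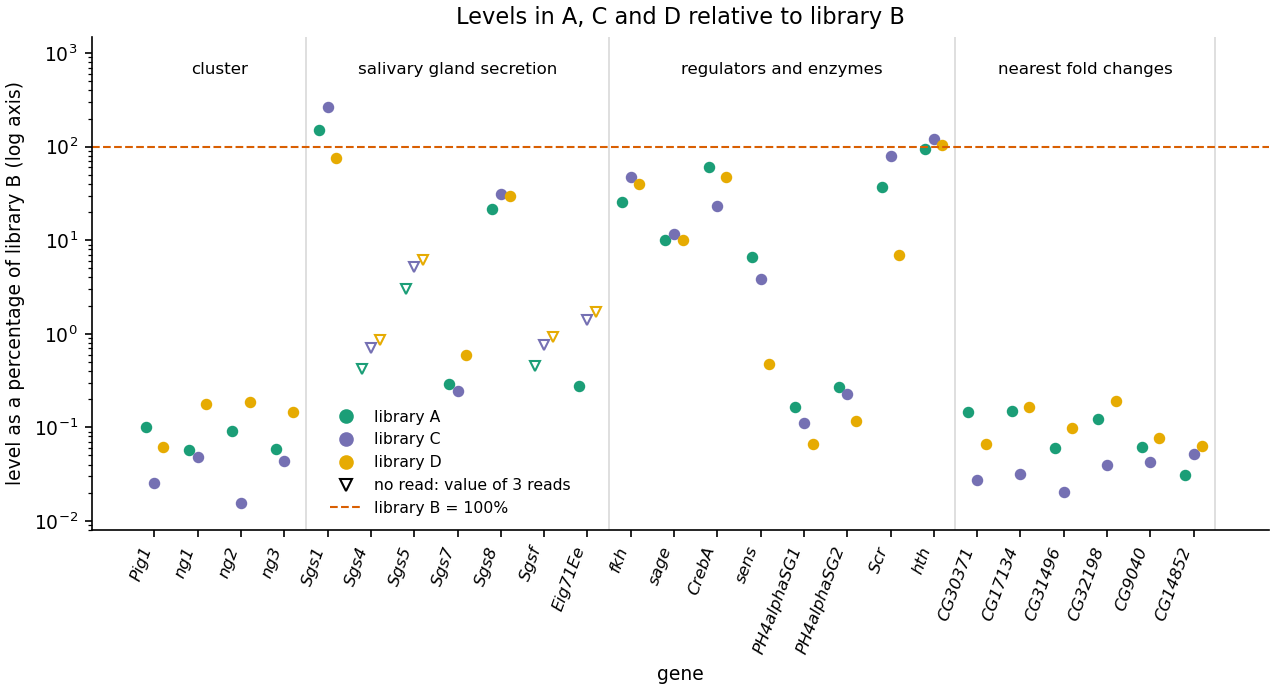
Level in libraries A, C and D as a percentage of the level in library B, on a log axis, for the cluster, for salivary gland genes at a base mean of 10 or more and for the 6 transcripts with the nearest fold changes; an open triangle marks no read. The cluster lies between 0.0156% and 0.188%, whereas sage lies near 10% and Sgs1 and hth near the dashed line.

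The 6 transcripts with the nearest fold changes in both tables, by distance from the median of the 4 genes over this single comparison, lie on other chromosomes. They were CG30371, CG17134, CG31496, CG32198, CG9040 and CG14852. CG30371, the nearest, at a distance of 0.242 log2 units, had 9 reads in A, 1 in C and 2 in D, against 4589 reads in B. CG32198 was the most abundant, with 143 reads in A, 27 in C and 109 in D, against 86820 reads in B. In these 6 transcripts A, C and D held between 0.0202% and 0.191% of the level of B, a range that spans most of that of the cluster. As they were picked by their fold changes, a range like that of the cluster follows from the choice. No role is given for these genes in the tables used here.

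Lists for other tissues and for the hormone response were examined next. All 10 neuron markers and all 6 glia markers had a base mean above 0, and none of the 9 neuron and 4 glia genes at a base mean of 10 or more was called in either of the authors' deposited tables, with medians of 0.38 and 0.13 in the edgeR table. None of the 12 ecdysone-response genes, all with reads, was called in the authors' deposited table from edgeR, where their median was 0.23. Markers of muscle, fat body and hemocytes were mostly negative as well. All 8 muscle genes were negative in the authors' deposited table from edgeR, with a median of -1.69, and none was called. Of 6 fat body genes with reads, 4 were negative in the authors' deposited table from edgeR, with a median of -2.63, or -6.62 over the 2 genes at a base mean of 10 or more. Of those 2, Lsp1alpha was called in the authors' deposited table from DESeq2 only. Of 4 hemocyte genes with reads, 3 were negative in the authors' deposited table from edgeR, with a median of -3.20, or -5.76 over the 2 genes at a base mean of 10 or more. Of those 2, PPO2 was called in both of the authors' deposited tables. Fbp1 in the fat body list and Hml, He and srp in the hemocyte list were at 0. Of 4 ring gland and 4 imaginal disc genes with reads, none was called in the authors' deposited table from edgeR. In each of these 2 lists 3 of the 4 were negative there, with medians of -0.29 and -0.42. Over all 12487 genes with reads, 5873 were negative. The part of other tissues in the values of the cluster was not tested.

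The RNAi target does not settle the direction. Of the 2 Set2 transcripts, 1 had no reads in any library. The other had 10 reads in A, 21 in C and 0 in D, against 36 reads in B, or 0.704, 2.50 and 0 CPM against 3.39 CPM. It was not called in the authors' deposited table from edgeR, at a log2 fold change of -1.65 and a false discovery rate of 1. Whether the cluster was high in a knockdown or in a control library cannot be told from these tables.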

How the data were processed

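The authors deposited 2 tables of one comparison and no values per sample. The submitters' processing notes list HISAT2, featureCounts, DESeq2, edgeR and the genome build dm3. Per the file headers, the deposited DESeq2 table gives a base mean, a signal made of read counts divided by size factors, a log2 fold change, its standard error, a Wald score and p-values. Per the file headers, the deposited edgeR table gives the log2 fold change, the log2 CPM, an F score and p-values. No test was run here, because no library can be tied to a labelled sample, so the planned description by the authors' tables was used. Columns of per-sample values left out numbered 0.

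Base means up to 0.5 gave the steps, refined by least squares up to base mean 12. All 8507 transcripts in that range had exactly 1 set of reads. Effective library sizes and a common dispersion were fitted to the deposited log2 CPM of 426 of them with the formula that the authors' tool edgeR uses, prior count 2, and the log2 CPM of the other 8081 was then returned within 5.906e-10. Higher transcripts were decoded as the set of whole reads that gives both the base mean, within 1.1 times its rounding error, and the log2 CPM, within 3 times its own. The search was limited to a range set from the fold change in the authors' deposited table from edgeR. Within that range, base means left 3 sets for Pig1, 2 for ng1, 3 for ng2 and 597 for ng3. Base mean and log2 CPM together left 1 set for each of the 4 genes there. Sets outside that range were not sought, so these sets are single only within it. With prior count 0.125, the edgeR fold change the authors give for the 4 genes then needs a dispersion of 0.0815 to 0.0989. In simulated tables of 15342 transcripts, 116 transcripts far lower in A, C and D than in B were decoded, and 99.1% came back as the single true set. An earlier run with another random seed gave a slightly lower share. The simulated reads varied by counting error only, around equal normalized levels in A, C and D. The cluster genes differed more among those libraries, so that share may not hold for them. Floors are 3 reads. Versions were Python 3.11.15, numpy 2.4.6, scipy 1.17.1, pandas 2.3.3 and numba 0.67.0.

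Of the 34115 transcripts, 33992 matched a gene in RefSeq Release 6 plus ISO1 MT, which gave names and gene order. Lengths and exons are from BDGP6.54. Neither is the build of the authors, so no coordinates are given. For each listed gene the transcript of highest base mean was used. The genes named were the 4 cluster genes, 5 genes on each side of them and any between, the listed salivary gland genes at a base mean of 10 or more, Set2 and the 6 non-cluster transcripts nearest in both fold changes. The genes, the lists and this rule were chosen with earlier results of these data known, and the secretion list without Sgs4 and ng4 was added after seeing the data. Of the lists, 1 secretion name and 1 ring gland name matched no gene. Alternatives were the other table, a threshold of 0.01, adjustment over transcripts at a base mean of 10 or more, no filter, each of A, C and D left out, and wider and narrower tolerances.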

Additional observations from a re-analysis of the deposited data

How the results depend on the processing

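Of 39 alternatives computed, 32 kept their direction and stayed within the spread or the count limit set for them, and 7 moved. None reversed. When A, C or D was left out, the spread used came from those same libraries, so staying within it shows little. For the median of the secretion list the spread was 4.90 log2 units, so values from -9.13 to -5.25 counted as unmoved. The 39 leave out the narrower tolerance for all 4 genes and the wider tolerance for ng3, which are described below. The DESeq2 table moved the fold changes of all 4 genes, to -9.00 for Pig1, -8.47 for ng1, -4.15 for ng2 and -8.58 for ng3, and also those of CG14265, ng4 and Sgs4; the cause was not tested. Leaving out A, C or D in turn gave log2 ratios of -11.18 to -10.27 for Pig1, -10.88 to -9.74 for ng1, -10.85 to -9.48 for ng2 and -10.94 to -9.93 for ng3. Library B cannot be left out, since it is alone on its side, and every statement on the cluster rests on it. All 4 genes and 5 secretion genes were called under each threshold and adjustment tried. The median of the secretion list was -9.13 at a base mean of 10 or more, -6.89 with no filter, -5.25 with no filter and without Sgs4 and ng4, and -5.63 in the DESeq2 table. Within the range of reads searched, a tolerance 10 times wider gave the same single set of reads for Pig1, ng1 and ng2. For ng3 it gave 22 sets, with the reported one among them. A tolerance 10 times narrower gave no set for any of the 4.

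No paired analysis was possible because no value is tied to a labelled sample. The replicate block, other normalizations, a low-count filter on counts and fits without a labelled replicate were not run for that reason. With 1 to 27 reads of Pig1, ng1 or ng2 in A, C and D, counting error limits any comparison among those libraries.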
